A study of Rattus norvegicus with 14 samples.

Results

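Brain capillaries are lined by endothelial cells joined by tight junctions, and this layer forms the blood-brain barrier. The 9 genes described here were grouped as endothelial and barrier genes, though not all are specific to that layer. They include the tight junction protein gene Cldn5, the glucose transporter gene Slc2a1 and the VEGF receptor genes Flt1 and Kdr. The others are the angiopoietin receptor gene Tek, the clotting factor gene Vwf, the adhesion molecule gene Pecam1, the growth factor gene Vegfa, and Pdcd10. Each of the 9 genes was represented by every probe set whose only gene symbol in the platform annotation was that gene. This gave 11 probe sets for 8 of the 9 genes, of 15866 probe sets that are not controls; no probe set was used for Tek. A mean of at least 4 on the log2 scale over the 14 arrays was required for a test, and 7 of the 11 probe sets met it. These were the single probe sets of Cldn5, Slc2a1, Vwf and Pdcd10, 1 of the 2 for Vegfa and 2 of the 3 for Flt1. The genes were assembled with earlier results of these arrays in view, and Pdcd10 was chosen by its measured difference between the groups, so that difference is described here without a test.

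VEGF-A is a secreted ligand made by glia, neurons and the choroid plexus, and it acts on endothelial cells through the receptors encoded by Kdr and Flt1, of which Kdr carries most of the growth signal and Flt1 mainly binds and restrains the ligand. GLUT1, the product of Slc2a1, carries glucose across the barrier and is also made by astrocytes, and claudin-5 seals the junctions between the endothelial cells. Pdcd10, also called CCM3, is expressed in many cell types; its loss in endothelium causes cerebral cavernous malformations, and its product binds the scaffold CCM2, germinal centre kinases and the striatin-containing phosphatase complex named STRIPAK.

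RNA came from the microdissected dentate gyrus of 14 male Long-Evans rats aged 3 to 4 months, all of which had been trained in a standard water maze 2 to 3 weeks before. In the single session of 8 trials at a new site, the 7 learning rats swam to a visible platform that stayed in 1 place among spatial cues. The 7 control rats swam the same number of trials to a visible platform that changed place in surroundings without useful cues. Both groups had a 90 s swim without the platform 1 h later and were killed straight after it, so the control rats had also swum and searched. The comparison asks which transcripts differ after a session that offered new spatial information. Each rat gave 1 Affymetrix RAE230A array. Array medians lay between 5.09 and 5.12, arrays correlated at 0.995 to 0.998, and no pair held identical values. The granule cell gene Prox1 averaged 10.3 in both groups. Of 9387 probe sets tested with limma, 0 had a Benjamini-Hochberg adjusted p below 0.05 (0%), and 1230 (13.1%) had an unadjusted p below 0.05, 604 of them higher (6.43%) and 626 lower (6.67%) in learning rats. Of the 7 member probe sets tested, 0 passed the adjusted threshold. At an unadjusted p below 0.01, reached by 3.93% of all probe sets and by 2.05% on the lower side, there was 1 member, Pdcd10; as this contrast chose it, nothing is read from that count.

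The sequences just upstream of the transcription starts of Cldn5, Slc2a1 and Pdcd10 show the start regions of the pair of barrier genes that varied together among rats and of the gene that did not vary with them (values further on). Each line gives the 250 bases before the RefSeq start, 5′ to 3′ on the gene's own strand, in build GRCr8. Cldn5 lies at chr11:95718599-95718848 on the minus strand, Slc2a1 at chr5:138002272-138002521 on the plus strand and Pdcd10 at chr2:162644613-162644862 on the minus strand. Capitals mark matches, on either strand, to CCGGAA, a core of ETS factor sites (TTCCGG on the other strand), and to ACGTG, the core of hypoxia response elements (CACGT on the other strand), a core that E-boxes of the form CACGTG also contain.
Cldn5: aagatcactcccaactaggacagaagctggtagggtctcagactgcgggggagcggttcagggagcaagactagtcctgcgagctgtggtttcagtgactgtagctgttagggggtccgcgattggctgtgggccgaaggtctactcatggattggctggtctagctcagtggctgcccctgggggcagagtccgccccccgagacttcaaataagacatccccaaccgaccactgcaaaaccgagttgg
Slc2a1: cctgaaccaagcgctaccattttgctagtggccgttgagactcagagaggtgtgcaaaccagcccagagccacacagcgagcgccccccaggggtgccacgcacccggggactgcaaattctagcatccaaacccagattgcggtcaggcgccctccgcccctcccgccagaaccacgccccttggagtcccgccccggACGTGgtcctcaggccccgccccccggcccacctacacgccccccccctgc
Pdcd10: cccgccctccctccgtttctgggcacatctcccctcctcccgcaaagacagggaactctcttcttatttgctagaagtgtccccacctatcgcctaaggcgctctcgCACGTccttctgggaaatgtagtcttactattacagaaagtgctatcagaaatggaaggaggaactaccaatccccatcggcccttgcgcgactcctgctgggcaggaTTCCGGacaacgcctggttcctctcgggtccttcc
Slc2a1 held 1 ACGTG, beginning 51 bases before the start. Pdcd10 held 1 ACGTG and 1 CCGGAA, both on the opposite strand, and Cldn5 held 0 of either. In 33469 windows of the same length, 12.6% held CCGGAA and 16.6% held ACGTG, so single matches are common. The GC content was 58.4% for Cldn5, 68.4% for Slc2a1 and 56.0% for Pdcd10, against a median of 51.2% over all windows. These matches describe the letters only.

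Pdcd10 was lower in learning rats, while the barrier markers lay at about the same level in both groups. On the log2 scale Pdcd10 spanned 8.62 to 8.94 (median 8.83) over the control arrays and 8.31 to 8.73 (median 8.52) over the learning arrays. The groups overlapped only because control replicate 7, at 8.62, lay below learning replicate 5, at 8.73. The other 6 control arrays were above every learning array, and the other 6 learning arrays were below every control array. Mean levels were 8.81 ± 0.10 (SD, n = 7) in controls and 8.51 ± 0.13 (SD, n = 7) after learning, a difference of -0.30 ± 0.07 log2 units (SE), or 1.23-fold higher in control tissue. The difference lay between -0.34 and -0.27 when any 1 array was left out. As the same arrays chose Pdcd10 by this difference, that range is a description and adds no support.

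Cldn5, the most endothelium-restricted of the barrier genes measured well above the filter, showed wide overlap. It spanned 9.16 to 9.72 (median 9.47) over the control arrays and 9.15 to 9.65 (median 9.31.) over the learning arrays Control replicate 4 and learning replicate 4 were the highest of their groups. The difference was -0.10 ± 0.09 (SE), with a 95% confidence interval from -0.296 to 0.10 (adjusted p = 0.646 in limma). It was -0.05 without control replicate 4 and -0.15 without learning replicate 4.

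Slc2a1, the glucose transporter gene, was the member with the smallest difference. It spanned 8.57 to 9.29 (median 8.95) over the control arrays and 8.67 to 9.37 (median 8.94.) over the learning arrays Again replicate 4 was highest in each group, and control replicate 1 was the lowest array. The difference was 0.0047 ± 0.12 (SE), with an interval from -0.24 to 0.25 (adjusted p = 0.991 in limma).

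Vwf, which encodes the von Willebrand factor stored by endothelial cells and most abundant in larger vessels, had the widest spread among control rats of the tested members. It spanned 5.22 to 6.45 (median 5.80) over the control arrays and 5.43 to 6.19 (median 5.75) over the learning arrays. Control replicate 5 was highest and control replicate 1 lowest of all arrays, so the learning group lay inside the control range. The difference was 0.01 ± 0.16 (SE), with an interval from -0.33 to 0.35 (adjusted p = 0.98 in limma).

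The VEGF receptors were near or below the filter, where GCRMA compresses differences, so their small differences say little. The brighter Flt1 probe set spanned 4.42 to 4.49 (median 4.44) over the control arrays and 4.33 to 4.64 (median 4.45) over the learning arrays, a difference of 0.01 ± 0.05 (SE). The second spanned 4.24 to 4.48 (median 4.31) over the control arrays and 4.24 to 4.30 (median 4.27) over the learning arrays. On that probe set 6 control arrays lay above all learning arrays while the seventh lay among them, and the difference was -0.07 ± 0.04 (SE; adjusted p = 0.525 in limma). The third Flt1 probe set, below the filter, lay between 2.54 and 2.64 on all arrays.

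Kdr, the main signalling receptor, and the endothelial adhesion gene Pecam1 did not reach the filter and were not tested in the main fit. Kdr spanned 3.18 to 3.86 (median 3.56) over the control arrays and 3.24 to 3.98 (median 3.54.) over the learning arrays Pecam1 lay between 2.44 and 2.50 on every array. A range this narrow is that of a probe set at background, so the arrays gave no usable level for Pecam1.

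Vegfa, the ligand, overlapped fully on its bright probe set. It spanned 6.73 to 7.56 (median 7.06) over the control arrays and 6.69 to 7.38 (median 7.05.) over the learning arrays Its difference was -0.02 ± 0.13 (SE), with an interval from -0.30 to 0.26 (adjusted p = 0.954 in limma). The second Vegfa probe set, below the filter, spanned 3.67 to 3.81 over the control arrays and 3.63 to 3.71 over the learning arrays, with 5 control arrays above all learning arrays and a difference of means of -0.06.

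**Figure D1:**
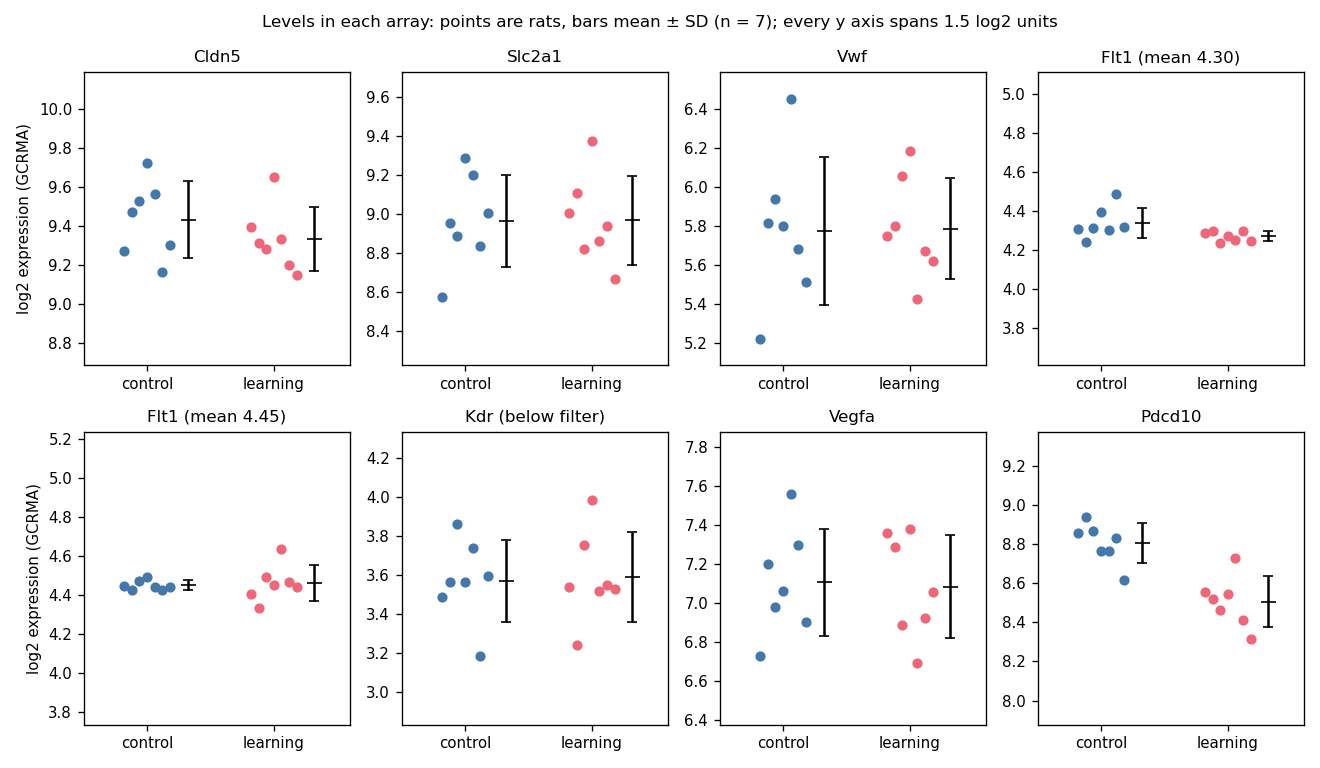
Log2 expression of 8 member probe sets in each rat, control in blue and learning in red, with mean and SD beside the points and 1.5 log2 units on every y axis. Pdcd10 shows nearly separate groups (control 8.62 to 8.94, learning 8.31 to 8.73), while Cldn5, Slc2a1, Vwf and Vegfa overlap widely and the receptors lie near the filter.

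Set side by side, the difference of Pdcd10 was -0.30 and those of the endothelial markers that were tested were -0.10 for Cldn5, 0.01 for Vwf, and 0.01 and -0.07 for Flt1. Slc2a1 and Vegfa, which other cell types also express, stood at 0.0047 and -0.02. Whether the difference of Pdcd10 exceeds that of any other member was not tested. In bulk tissue, fewer cells of a type and less RNA per cell cannot be told apart. Endothelial markers outside the 9 genes were read beside Pdcd10: the mean of 12 of them was 6.53 ± 0.05 (SD, n = 7) in controls and 6.57 ± 0.09 (SD, n = 7) after learning, a difference of 0.04 (two-sided exact permutation p = 0.291). With that mean as a covariate the difference of Pdcd10, by which it was chosen, was -0.31. The mean differed little between the groups and had r = 0.13 with Pdcd10 within them. It could thus hardly move the difference, and nothing is read from the adjusted value.

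**Figure D2:**
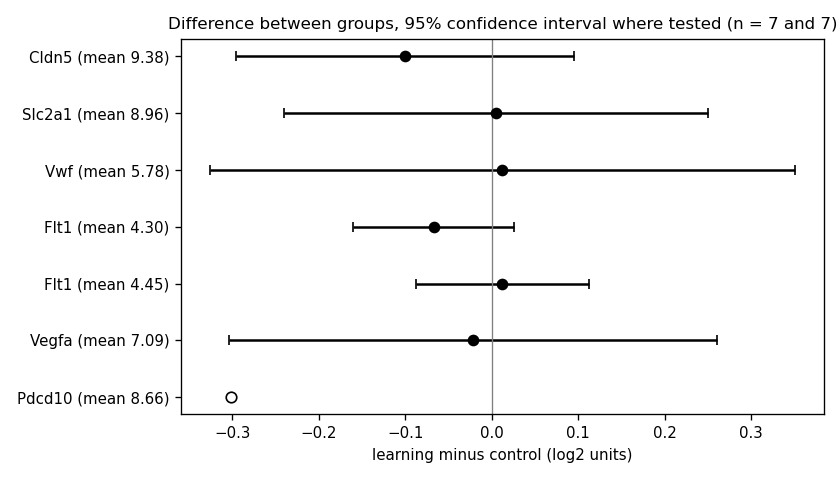
Difference between learning and control rats in log2 units for the 7 tested probe sets, with the 95% confidence interval from limma for 6 of them and the zero line. Those 6 lie between -0.10 and 0.01 and their intervals include 0; Pdcd10, the open point at -0.30, was chosen by this difference and is drawn without an interval.

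The rats differed more from each other in some barrier genes than the groups did, and this variation was followed within the groups, which leaves out the contrast that chose Pdcd10. Each value was taken as its deviation from the group mean and correlated over the 14 arrays with marker means for other endothelial genes, mural cells (pericytes and smooth muscle), meninges with fibroblasts, and astrocytes. This made 24 relations of 6 genes, with two-sided permutation p values adjusted over the 24. Arrays share their normalization, which can tie probe sets together.

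Vwf and Cldn5 were high on the arrays with high meningeal markers. Of 12 meningeal and fibroblast markers, 9 passed the filter, among them Ptgds, a prostaglandin synthase of the leptomeninges. Their mean ranged from 5.11 to 7.71 over control arrays and from 4.92 to 7.89 over learning arrays. Vwf correlated with this mean at r = 0.80 (p = 0.00018, adjusted p = 0.00432) and rho = 0.76 (p = 0.00421, adjusted p = 0.0277) by permutation. Without the 2 arrays farthest from the median r was 0.77, and the relation still passed whichever single array was left out. Taken singly, the groups gave r = 0.80 (control) and 0.85 (learning).

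Cldn5 gave r = 0.78 with the meningeal mean (permutation p = 0.00181, adjusted p = 0.0217) and rho = 0.75 (permutation p = 0.00462, adjusted p = 0.0277), and r = 0.68 without the 2 farthest arrays. Its relation lost the threshold without learning replicate 4 (r = 0.69, adjusted p = 0.171 by permutation) and without control replicate 2 (r = 0.79, adjusted p = 0.0522 by permutation). The arrays left a gap in the meningeal mean, with 8 arrays between 4.92 and 6.0 and 6 between 6.70 and 7.89. Within these sides r was 0.58 and 0.40 for Cldn5, and 0.19 and 0.72 for Vwf. These values pooled both groups without removing group means, so they are not like the r over all arrays.

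Kdr showed the same pattern although its probe set did not reach the filter; this relation was computed after its values had been seen. The arrays with the highest Kdr levels were learning replicate 4 at 3.98, control replicate 3 at 3.86, learning replicate 3 at 3.75 and control replicate 5 at 3.74. These are also the 4 arrays with the highest meningeal means, 7.89, 7.71, 7.12 and 7.69. Over 14 arrays r was 0.83 (permutation p = 2e-05, adjusted p = 0.00056 over 28 relations) and rho 0.91 (permutation p = 3e-05, adjusted p = 0.00084), with r = 0.71 without the 2 farthest arrays. On the lower and higher sides of the gap r was 0.49 and 0.89, again without removing group means.

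Mural cells wrap the vessels, and their markers were compared in the same way. Cldn5 correlated with the mean of 6 mural genes at r = 0.74 (permutation p = 0.00398, adjusted p = 0.0318) and rho = 0.77 (permutation p = 0.00231, adjusted p = 0.0277). Without the 2 farthest arrays r was 0.67. With the meningeal mean taken out of both, r was 0.12 for Cldn5. The same was done for Vwf, whose value is not given here, and not for Kdr. Without that step, 7 of the 14 Cldn5 fits that left out 1 array lost the threshold. Without learning replicate 4 the Cldn5 r was 0.61 and the adjusted p 0.247 by permutation. For Vwf r was 0.67 (permutation p = 0.0115, adjusted p = 0.0691) and rho 0.76 (permutation p = 0.00366, adjusted p = 0.0277), and r was 0.68 without the 2 farthest arrays. Kdr, below the filter, had r = 0.78 with the mural mean (permutation p = 0.0026, adjusted p = 0.0182 over 28 relations), rho = 0.61 (permutation p = 0.0268, adjusted p = 0.125) and r = 0.53 without the 2 farthest arrays.

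**Figure D3:**
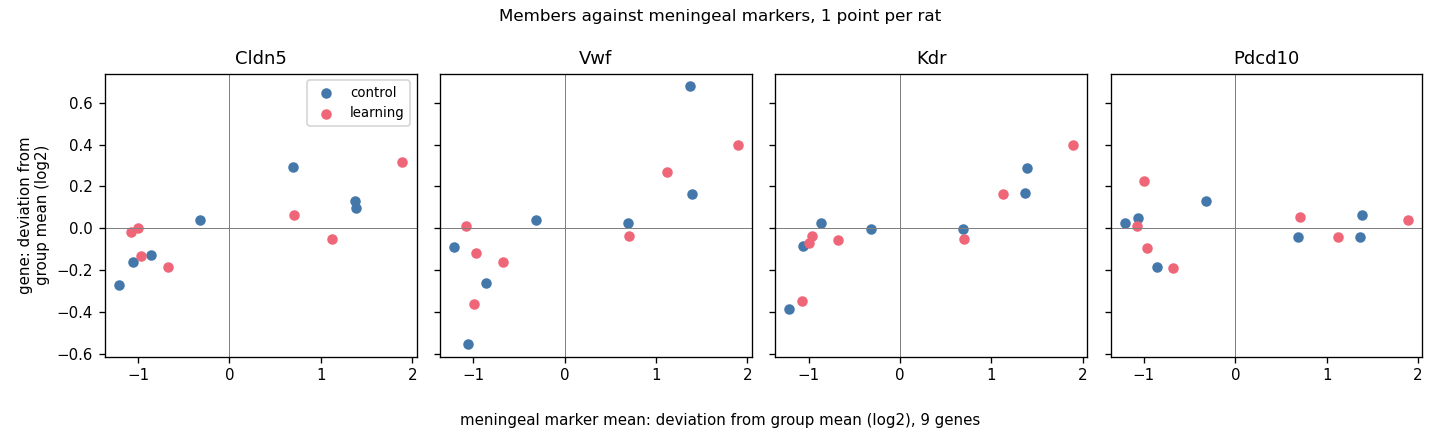
Deviation of Cldn5, Vwf, Kdr and Pdcd10 from their group means (y axis, log2 units) against that of the mean of 9 meningeal markers (x axis, log2 units), 1 point per rat, control in blue and learning in red. Cldn5, Vwf and Kdr rise with the meningeal markers (r = 0.78, 0.80 and 0.83), and Pdcd10 shows no such slope (r = 0.05).

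Markers of brain endothelium outside the 9 genes gave weaker relations with the tested members. The mean of the 12 other endothelial genes, which include the organic anion transporter gene Slco1a4, the efflux pump gene Abcb1a and the junction gene Esam, varied by only 6.44 to 6.70 over all arrays. None of the 6 tested members followed it: r lay between -0.18 and 0.36 (adjusted p from 0.492 to 0.861), and rho between -0.21 and 0.39 (adjusted p from 0.423 to 0.913), by permutation. Kdr, below the filter, had r = 0.67 with this mean (permutation p = 0.0115, adjusted p = 0.046 over 28 relations), rho = 0.55 (permutation p = 0.0495, adjusted p = 0.198) and r = 0.55 without the 2 farthest arrays. Of the 12 genes taken singly, 6 correlated positively with Cldn5 and 6 negatively, with r from -0.44 to 0.60, and 6 positively and 6 negatively with Vwf, with r from -0.53 to 0.66. Among 48 such relations, added after the data were seen and which also covered Slc2a1 and Pdcd10, 0 passed permutation tests adjusted over the 48 (lowest adjusted p = 0.359). Adgrl4, an adhesion receptor of endothelial cells, had the largest r with Cldn5 among them, and Podxl the largest with Vwf.

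Slc2a1 and Vegfa gave weaker relations with the same means. Slc2a1 had r = 0.55 with the meningeal mean (permutation p = 0.0542, adjusted p = 0.25) and 0.49 with the mural mean (permutation p = 0.0924, adjusted p = 0.317). Vegfa had r = 0.42 and 0.41, with adjusted permutation p values of 0.427 each. Flt1 stayed between -0.30 and 0.36 with all 4 means over both groups. Its r differed in sign between control and learning rats for all 4 means. The values were 0.60 and -0.77 for the astrocyte mean and -0.42 and 0.48 for the other endothelial mean. For the meningeal mean they were 0.56 and -0.07, and for the mural mean 0.45 and -0.05. These differences were not tested. With the astrocyte mean the largest r was that of Cldn5, 0.55 (permutation p = 0.0624, adjusted p = 0.25); it was 0.90 in control and -0.06 in learning rats, a difference that was not tested.

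Pdcd10 followed none of these means. Its r was 0.13 with other endothelial genes, 0.27 with mural, 0.05 with meningeal and -0.12 with astrocyte markers, with adjusted permutation p values from 0.561 to 0.91. With the meningeal mean as a covariate its difference between the groups, by which it was chosen, was -0.30. At r = 0.05 this covariate could hardly move the difference, so nothing is read from the adjusted value. Under the same covariate, Cldn5 differed by -0.06 and Vwf by 0.08. Whether meningeal tissue sets the levels of Cldn5, Vwf and Kdr was not tested.

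**Figure D4:**
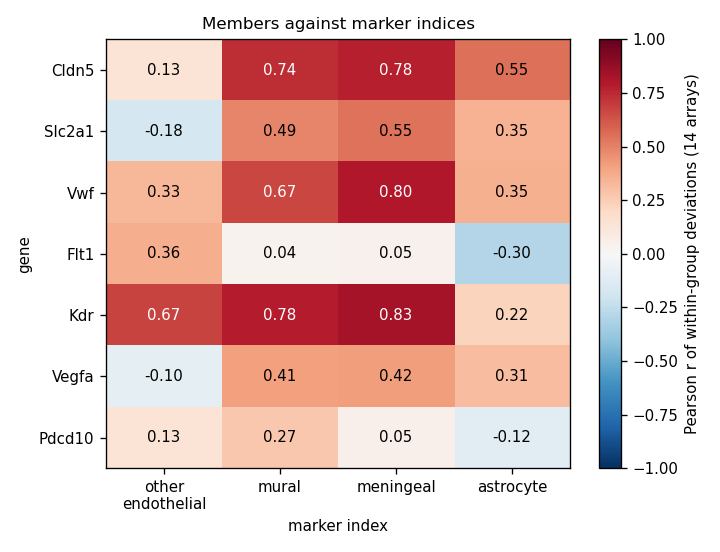
Pearson r, over 14 arrays, of the within-group deviations of 7 genes (rows) with 4 marker means (columns), coloured from -1 in blue to 1 in red; Kdr is below the filter. Cldn5, Vwf and Kdr stand out in the mural and meningeal columns (0.67 to 0.83), and Pdcd10 does not exceed 0.27.

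Among pairs of members, Cldn5 and Slc2a1 varied together. Of 15 pairs, computed after the data were seen, 1 passed adjustment over the 15: these genes had r = 0.81 (permutation p = 0.00149, adjusted p = 0.0223) and rho = 0.76 (permutation p = 0.00344, adjusted p = 0.0516), with r from 0.72 to 0.84 when 1 array was left out. Both genes were highest in replicate 4 of each group, and r was 0.60 without the 2 arrays farthest from the Cldn5 median. Vwf and Vegfa came next at r = 0.71 (permutation p = 0.00686, adjusted p = 0.0514), with rho = 0.64 (permutation p = 0.0187, adjusted p = 0.0703) and r = 0.46 without the 2 farthest arrays. Flt1, at its level near the filter, had r = -0.60 with Vegfa (permutation p = 0.0104, adjusted p = 0.0522) and rho = -0.70 (permutation p = 0.0115, adjusted p = 0.0603), with r = -0.51 without the 2 farthest arrays. The 5 pairs with Pdcd10 had r between -0.07 and 0.36.

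The genes whose within-group pattern was most like each member's were read from 7796 probe sets with 1 symbol, as a description over 14 arrays. For Cldn5 they were Aebp1 (r = 0.90), Gpx1 (0.87) and Mesd (0.86). For Slc2a1 they were Epn1 (r = 0.90), Anapc7 (0.85) and Mapk14 (0.84), and for Vwf Bmp6 (r = 0.88), the collagen chaperone gene Serpinh1 (0.88) and Chmp2a (0.88). Aebp1 and Serpinh1 are genes of connective tissue matrix, and Epn1 serves endocytosis. For Vegfa they were Isyna1 (r = 0.88), the chemokine gene Cxcl12 (0.86) and Ppme1 (0.83). For Pdcd10 they were the lysosomal transporter gene Slc17a5 (r = 0.87), the ATP synthase subunit gene Atp5me (0.84) and Cyp2d4 (0.82), and for Flt1 Trim3 (r = 0.93), Tubb5 (0.90) and Suox (0.88). Leaving out 1 array kept these correlations between 0.73 and 0.96, and no test was made of them.

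The genes listed around Pdcd10, not all of them its partners, had differences of both signs. Of 31 listed genes of the CCM complex, STRIPAK and their targets, 26 were on the array and 23 passed the filter. In learning rats 14 were higher and 9 lower, with a median difference of 0.03 against 0.0018 over all 6697 genes tested. At an unadjusted p below 0.05 there were 5 higher and 1 lower, where 6.43% of all probe sets were higher and 6.67% lower at that level, and 0 passed limma's adjusted threshold. Rock2, a kinase downstream of RhoA, a pathway overactive when CCM proteins are lost, had the smallest p of the list: it was 8.73 ± 0.14 (SD, n = 7) in controls and 9.10 ± 0.19 (SD, n = 7) after learning, a difference of 0.37 ± 0.09 (SE; adjusted p = 0.153 in limma), with 0.57 on its second probe set.

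The striatin genes Strn3 and Strn4, scaffolds of STRIPAK, differed in opposite directions, by 0.26 ± 0.07 (SE; adjusted p = 0.210 in limma) and -0.25 ± 0.08 (SE; adjusted p = 0.241 in limma), while Strn stood at -0.0074. Within the CCM complex, Ccm2, which joins Pdcd10 to Krit1, was at 7.19 ± 0.19 (SD, n = 7) in controls and 7.48 ± 0.19 (SD, n = 7) after learning. Ccm2 differed by 0.29 (adjusted p = 0.241 in limma). Heg1, the receptor anchor of the complex, differed by 0.23 (adjusted p = 0.242 in limma). Krit1 differed by -0.05. The kinases that bind Pdcd10 directly, Stk24 and Stk25, differed by 0.12 and -0.11, and Klf2, a transcription factor held down by the CCM complex, by -0.33 ± 0.17 (SE; adjusted p = 0.441 in limma). Strn, Ccm2, Heg1, Krit1, Stk24, Stk25 and Klf2 are named for their place in the complex, after their values were seen.

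**Figure D5:**
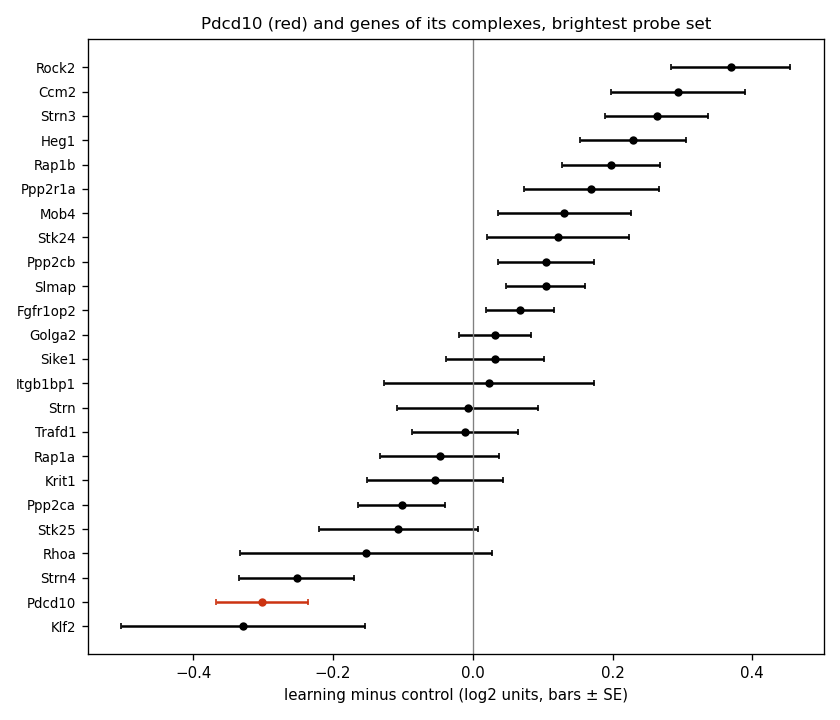
Difference between learning and control rats (x axis, log2 units, bars ± SE) for Pdcd10, in red, and 23 genes of the CCM and STRIPAK list, 1 probe set per gene. Pdcd10 at -0.30 lies near the lower end with Klf2 at -0.33 and Strn4 at -0.25, and Rock2 at 0.37 lies at the upper end.

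Genes of the ligand and receptor pathway around Vegfa showed differences of both signs. Of 20 listed VEGF and angiopoietin genes, 18 were on the array and 11 passed the filter, with 4 higher and 7 lower and a median of -0.02. Limma called 0, and 0 had an unadjusted p below 0.05. The co-receptor gene Nrp1, which granule cells also express, differed by -0.27 (0.14 on a second probe set), Pik3ca by -0.26 (0.12 on a second probe set) and Akt1 by 0.15 (0.35 on a second probe set). Of 20 hypoxia response genes, 18 were on the array and 13 were tested, 4 higher and 9 lower, with a median of -0.06. Limma called 0. At an unadjusted p below 0.05 (6.67% of all probe sets lower, 6.43% higher), 3 of these genes were lower and 0 higher. They were Epas1, the hypoxia-inducible factor of endothelium and astrocytes, at -0.30 ± 0.09 (SE; adjusted p = 0.218 in limma), Ddit4 at -0.25 and the lactate dehydrogenase gene Ldha at -0.13. A second Epas1 probe set differed by 0.08.

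Barrier components beyond the 9 genes were counted in the same way, beside the 13.1% of all probe sets with an unadjusted p below 0.05. Of 34 other endothelial markers, 23 were on the array and 12 passed the filter, 7 higher and 5 lower, with a median of 0.03. Limma called 0, and 1 had an unadjusted p below 0.05. That gene was Podxl, a sialomucin of the endothelial surface, at 0.28 ± 0.09 (SE; adjusted p = 0.236 in limma); Palmd stood at 0.09, with 0.14 and 0.01 on its further probe sets, and Slco1a4 at 0.17, with 0.42 on its second probe set. Of 18 junction genes, 11 were on the array and 7 were tested, 5 higher and 2 lower, with a median of 0.10, 1 unadjusted p below 0.05 and 0 calls. Cldn12, another claudin of the barrier, differed by 0.21 ± 0.08 (SE; adjusted p = 0.289 in limma), the filament-binding Afdn by 0.19 (-0.04 on its second probe set) and the scaffold gene Tjp1, which encodes ZO-1, by 0.10.

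Of 20 barrier transporter and receptor genes, 18 were on the array and 13 were tested, with 8 higher, 5 lower and a median of 0.01. Limma called 0, and 1 had an unadjusted p below 0.05, as 13.1% of all probe sets did. The lipoprotein receptor gene Lrp1 differed by 0.14, the arginine transporter gene Slc7a1 by 0.16 (0.03 on its second probe set) and the caveolin gene Cav1 by -0.47 ± 0.27 (SE; adjusted p = 0.472 in limma). Mural markers numbered 15 on the array and 6 past the filter, 4 higher and 2 lower, with a median of 0.06; limma called 0 and 0 had an unadjusted p below 0.05. Acta2, the smooth muscle actin gene, differed by -0.52 ± 0.27 (SE), Pdgfrb by 0.05 and Rgs5 by -0.04. The mural mean spanned 5.27 to 6.28 over control and 5.22 to 6.33 over learning arrays.

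Markers of other cell types that the dissection could hold were read on the same arrays. The meningeal list had a median difference of -0.22, with 2 genes higher and 7 lower and a group difference of its mean of -0.33 (two-sided exact permutation p = 0.598). That median was -0.03 without control replicate 5 and -0.53 without learning replicate 4, and -0.49 with a filter at 5. Its size thus depends on single rats. Of 11 astrocyte genes 7 were lower, with a median of -0.03, and the brightest, Apoe, differed by 0.06. Of 8 microglial genes 7 were lower and 1 higher, with a median of -0.14. Limma called 0, and 1 of the lower genes had an unadjusted p below 0.05, where 6.67% of all probe sets were lower at that level. The brightest, Ctss, differed by -0.02, and the largest difference was that of Aif1, at -0.37 (adjusted p = 0.444 in limma). The haemoglobin gene Hbb, which reads blood left in the vessels, was at 11.1 ± 0.33 in control and 11.1 ± 0.35 in learning rats (SD, n = 7). Of 9 choroid plexus genes, 7 were on the array and 2 were tested, both lower in learning rats by very different amounts. Ttr, the transthyretin gene of the choroid plexus, was at 7.47 ± 1.07 (SD, n = 7) in controls and 5.68 ± 0.14 (SD, n = 7) after learning, with no overlap between the groups (difference -1.78, adjusted p = 0.153 in limma). Enpp2 was at 7.30 ± 0.15 (SD, n = 7) and 7.26 ± 0.17 (SD, n = 7), with overlap. Single probe sets without overlap made up 0.405% of all tested, 0.234% being lower in learning rats, and 0 of the 7 member probe sets were among them. The levels of Ttr, microglial markers and CA1 markers were not tested for their part in the Pdcd10 difference. The 5 CA1 markers had a median of 0.31, with 4 higher and 1 lower in learning rats. The lower one was Itpka, the brightest, at -0.05. Limma called 0, and 1 had an unadjusted p below 0.05, as 13.1% of all probe sets did. That gene was Wfs1, at 6.84 ± 1.07 (SD, n = 7) in controls and 7.79 ± 0.38 (SD, n = 7) after learning. It differed by 0.95 (adjusted p = 0.326 in limma), with 0.43 on its second probe set. The 6 granule cell markers had one of -0.008, with Pcp4, the brightest, at -0.07.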

How the data were processed

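Total RNA of 14 dentate gyri, 7 per group, was hybridised to 1 array per rat. The deposited values are on a log2 scale; the submitters' processing notes name GCRMA, without version or settings. The values ran from -0.56 to 15.0. Titles gave each array's group and number and term them biological replicates. No batch is labelled, and precision is limited by the number of arrays.

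Of 15923 probe sets, 57 were controls. Of the other 15866, 12783 had 1 gene symbol in the platform annotation, 312 had several and 2771 none; 12748 gene IDs matched the RefSeq gene table (GRCr8). Limma 3.58.1 (R 4.3.3; lmFit and eBayes, no covariate) was fitted to the 9387 probe sets averaging 4 or more, with Benjamini-Hochberg adjustment over all of them, and was tested on simulated data. A gene was represented by its brightest probe set. Correlations used deviations from group means and 100000 permutations within groups (numpy 2.4.6), and the smallest p these can give is 1e-05. On the sides of the meningeal gap, values were used without removing group means. Promoter windows came from RefSeq.

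The members and lists were chosen with earlier results of these data known. Named genes are all members, the 3 genes of smallest p in each vascular or pathway list, the 1 of highest mean in other marker lists, and the 3 most similar genes per member. The exceptions are those given in the text and Prox1, Esam, Abcb1a, Adgrl4, Ttr, Wfs1 and Aif1, named after their values were seen. Member pairs, the Kdr relations, the sides of the meningeal gap and the single endothelial markers were added after the data were seen. Alternatives were other filters, normalizations and priors, array weights, a replicate block, covariates and each array left out in turn.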

Additional observations from a re-analysis of the deposited data

Results flagged for a closer look

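Of 22 groups of 7 values examined with Dixon's ratio, 3 held an array far from the others, all in probe sets below the filter; chance gives about 1 in 20. The third Flt1 probe set was at 2.64 in control replicate 4, above the others of its group. Pecam1 was at 2.50 in the same control array and at 2.44 in learning replicate 3. These gaps are a few hundredths of a log2 unit at background level.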

How the results depend on the processing

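Under all alternatives run, 0 member probe sets and 0 list genes passed limma's adjusted threshold. The fit without a filter also tested the member probe sets below it. There 3 of the 11 member probe sets had an unadjusted p below 0.05, beside 1476 of all 15866. Pdcd10 was chosen by this contrast and values below the filter are compressed, so nothing is read from that count. None of the 6 tested members followed the other endothelial mean in any alternative. The Pdcd10 difference kept its sign (-0.34 to -0.27 over the fits without 1 array). As the same arrays chose Pdcd10 by this difference, its kept sign adds no support. Signs of the smallest differences were not stable. With array weights Slc2a1 was at -0.0068 and Vwf at -0.0403. With the meningeal mean as covariate Vegfa was at 0.0098, and with the other endothelial mean as covariate the brighter Flt1 probe set was at -0.0018 and Vwf at -0.0516. Averaging the Flt1 probe sets gave -0.0273. Without 1 array, the ranges were -0.0631 to 0.0587 for Slc2a1, -0.0842 to 0.0543 for Vegfa, -0.0166 to 0.0338 for the brighter Flt1 probe set and -0.0796 to 0.13 for Vwf.

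Without 1 array, 1 to 4 of the 24 relations with marker means passed. The ranges of r were 0.69 to 0.84 for Cldn5 with the meningeal mean, 0.76 to 0.84 for Vwf with it and 0.61 to 0.85 for Cldn5 with the mural mean. With the replicate block, taken as 7 differences between same-numbered arrays, 0 relations passed exact permutation tests. With the meningeal mean r was 0.75 for Cldn5 (adjusted p = 0.324 by exact permutation) and 0.94 for Vwf (adjusted p = 0.0524 by exact permutation). For Cldn5 with the mural mean r was 0.71 (adjusted p = 0.324 by exact permutation). This design has 7 values. The labels do not say that a number links 2 rats, and for that reason the numbers were not taken as pairs. The values do not settle this. Deviations correlated above 0.1 in 4 of 7 same-numbered pairs (median 0.114), and 4 of 7 control arrays correlated best with their own number. Whether same-numbered arrays share a source of variation was not tested, and the permutation p values without the block take the arrays as unlinked. The same block left 0 member probe sets past limma's threshold. Cldn5 with the mural mean was at 0.12 once the meningeal mean was removed. Without the 2 arrays farthest from the endothelial median it was at 0.77 and no longer passed (adjusted p = 0.0531 by permutation). The sides of the meningeal gap were chosen after seeing the data, and their values were pooled over the groups without removing group means. On the lower and higher side, r with the meningeal mean was 0.58 and 0.40 for Cldn5 and 0.19 and 0.72 for Vwf. Relations with the other endothelial mean changed sign for Cldn5 (-0.51 with the meningeal mean removed, -0.25 with the replicate block, -0.10 to 0.37 without 1 array), for Vwf (-0.17 with the meningeal mean removed), for Vegfa (0.10 with the block, 0.21 without the 2 farthest arrays, -0.26 to 0.0541 without 1 array), for Slc2a1 (0.0203 without the 2 farthest arrays) and for Flt1 (-0.0098 there). List medians near 0 changed sign too: without 1 array, mural markers ranged from -0.12 to 0.13, VEGF and angiopoietin genes from -0.057 to 0.0012, transporters from -0.0032 to 0.0575, blood markers from -0.017 to 0.0405 and granule cell markers from -0.0443 to 0.0184, and blood markers were at -0.0301 with a filter at 5 and -0.003 after quantile normalization. The cause of these changes was not tested. Probe sets near the filter, such as those of Flt1, lie where GCRMA compresses differences.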
